A study of Mus musculus with 2 samples.

Results

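Genes whose mouse symbol is Zfp followed by a number encode zinc finger proteins, and the Rac1 CUT&Tag peaks assigned to them in the retina are described here. Members were taken by symbol alone, as every peak whose assigned gene begins with Zfp and a digit, pseudogenes left out. The rule itself uses no measured value, though it was chosen with earlier results of these data known. The members came to 23 peaks of 22 genes among 1711 peaks of 1593 genes after chronic ocular hypertension (COH), and to 55 peaks of 53 genes among 3078 peaks of 2893 genes in the control. Together these were 78 peaks of 57 Zfp genes among 4789 peaks of 3457 genes. Of the 57 genes, 18 had a peak in both lists, 4 in the COH list alone (Zfp239, Zfp365, Zfp467 and Zfp872) and 35 in the control list alone. The control list is the longer one for all genes. Of the Zfp genes in the control list, 34% were also in the COH list, against 32.7% of the other protein-coding genes. Of those in the COH list, 81.8% were also in the control list, against 65.2%, and the 95% intervals overlapped both times.

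CUT&Tag cuts and tags chromatin where an antibody binds, here an antibody against Rac1, a small GTPase best known for its control of the actin cytoskeleton. Nuclei came from retinas of wild type C57BL/6 mice labelled as 7 weeks old, 1 library at 1 week of chronic ocular hypertension, a raised pressure of the eye used as a glaucoma model, and 1 library from untreated mice. The stated purpose was a search for genes and transcription factors linked to Rac1, and the number of mice per library is not given in the sources used here. With 1 library per group there was no replicate and no test between the conditions, so the lists are set side by side without p-values.

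Most Zfp symbols stand for proteins with tandem C2H2 zinc fingers, each finger holding a zinc ion and reading a few bases of DNA, so that an array of fingers gives a protein its own target sequence. Many of the mouse proteins also carry a KRAB domain, which recruits the corepressor TRIM28 and, through it, the histone methyltransferase SETDB1, and is known chiefly for silencing retroelements and imprinted loci. KRAB zinc finger genes arose by repeated tandem duplication and often lie in clusters of neighbouring, similar genes.

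Promoters of 46 of the 57 genes were found in RefSeq's promoter table (mouse assembly GRCm38.p6), which gives 300 bases per start site, 250 before it and 50 after. Windows of 30 bases around the core of the YY1 site are shown, because among 7 motifs searched its share in Zfp genes with a peak stood furthest, as a ratio, from that in other gene sets. It was singled out after these shares were seen. The core is in capitals, as ATGGCG where it lies on the gene's own strand and as CGCCAT where it lies on the other strand, with lower case for the bases beside it. All windows run 5' to 3' on the gene's strand. The first 7 belong to genes with a peak in both lists, and the last 3 to genes with a control peak that stand beside another Zfp gene with a peak.
Zfp868: gttcttttcggcCGCCATgttagctaaagg
Zfp869: ggtcctatccgcCGCCATgctgcagattct
Zfp433: gtacttccggtcCGCCATgctgcaggctcc
Zfp788: ggatttcttggcCGCCATgccaccttccaa
Zfp143: gatgagcagtttCGCCATccagtcaggcac
Zfp959: ggcgcaagttctATGGCGatatgtccctgt
Zfp217: acgttaggccggATGGCGggacacggcgcg
Zfp781: gcacttcctgtcCGCCATattacccgcttt
Zfp961: gaggccgggcgcCGCCATtttcggcgctgt
Zfp617: aagttcctcaccCGCCATctttcttgctgg

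In GRCm38.p6 the windows lie in the promoters at chr8:69625523-69625552 on the minus strand for Zfp868 and chr8:69716867-69716896 on the minus strand for Zfp869. Zfp433 has its window at chr10:81704771-81704800 on the plus strand, and Zfp781 at chr10:81930513-81930542 on the minus strand. On the plus strand, that of Zfp788 lies at chr7:41633549-41633578 and that of Zfp143 at chr7:110061454-110061483. Zfp959 has its window at chr17:55891867-55891896 on the plus strand, and Zfp217 at chr2:170131392-170131421 on the minus strand. On the plus strand, Zfp961 has its window at chr8:71951049-71951078 and Zfp617 at chr8:71922827-71922856. Counted from the start site, the core began at base 8 in Zfp868, 18 in Zfp869, 30 in Zfp788 and 14 in Zfp617, all inside the transcribed part. It began before the start site in the others, at -5 in Zfp961, -18 in Zfp781, -42 in Zfp433, -189 in Zfp217, -214 in Zfp959 and -236 in Zfp143.

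The files hold peaks and no reads, so the number of reads behind a value is unknown. The lists give only peaks past the caller's threshold, and a gene without one is a gene with no listed peak. Peak positions below are the lists' own. Their build is unsettled, since the submitters' processing notes name mm9 while 1 of the 57 Zfp gene starts lay within 100 bp of its place in GRCm38.p6 and the median offset was 158 kb. Intervals are exact Clopper-Pearson 95% intervals for shares and order-statistic 95% intervals for medians. They cover counting error only, because the peaks and genes of 1 library are not replicates of a condition. Reads amplified by PCR and carrying no molecular identifier are not independent of each other either. Of the markers of retinal cell types looked up, only Glul of Müller glia had a peak, at its promoter in the control (fold enrichment 4.65), and none of the markers of cones, ganglion, bipolar or amacrine cells had one. Peaks are no measure of expression, and a library without the antibody was not analysed here.

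Peaks of Zfp genes lay mostly at the beginning of the gene. By the lists' own annotation, 19 of 23 Zfp peaks were at a promoter or 5' UTR in COH, 82.6% (61.2 to 95), against 51.7% (49.3 to 54.1) of the 1688 other COH peaks and 52.1% of the whole list. In the control, 48 of 55 were, 87.3% (75.5 to 94.7), against 64% (62.2 to 65.7) of the 3023 other control peaks and 64.4% of the whole list. In both lists the interval of the Zfp share lay above that of the other peaks. The promoter class by itself held 13 of the COH peaks, 56.5% (34.5 to 76.8), beside 40.3% (38 to 42.7) of the other peaks. In the control it held 31 peaks, 56.4% (42.3 to 69.7), beside 46.8% (45 to 48.6). For this class the intervals overlapped in both lists. The 5' UTR class held 6 peaks in COH, 26.1% (10.2 to 48.4), and 17 in the control, 30.9% (19.1 to 44.8), beside 11.4% and 17.2% of the others. The interval for 5' UTRs lay above that of the other peaks in the control and overlapped it in COH.

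Few Zfp peaks lay elsewhere. No COH peak was in an intron, which with 23 peaks leaves an upper bound of 14.8%, against 16.6% (14.8 to 18.4) of the other COH peaks. The control had 3 intronic peaks, 5.45% (1.14 to 15.1), against 12% (10.9 to 13.3). For introns the intervals met at 14.8% in COH and overlapped in the control. In Zfp341, whose human counterpart drives STAT3 transcription, and in Zfp382 the intronic peak began 298 and 271 bp into the gene. In Zfp516, an activator of brown fat genes, it lay 88994 bp in. Distal intergenic peaks numbered 3 in COH, 13% against 26.9% of the others, and 2 in the control, 3.64% against 18.8%. The distal COH peaks were assigned to Zfp395, Zfp239 and Zfp365, and the distal control peaks to Zfp395 and Zfp438.

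**Figure D1:**
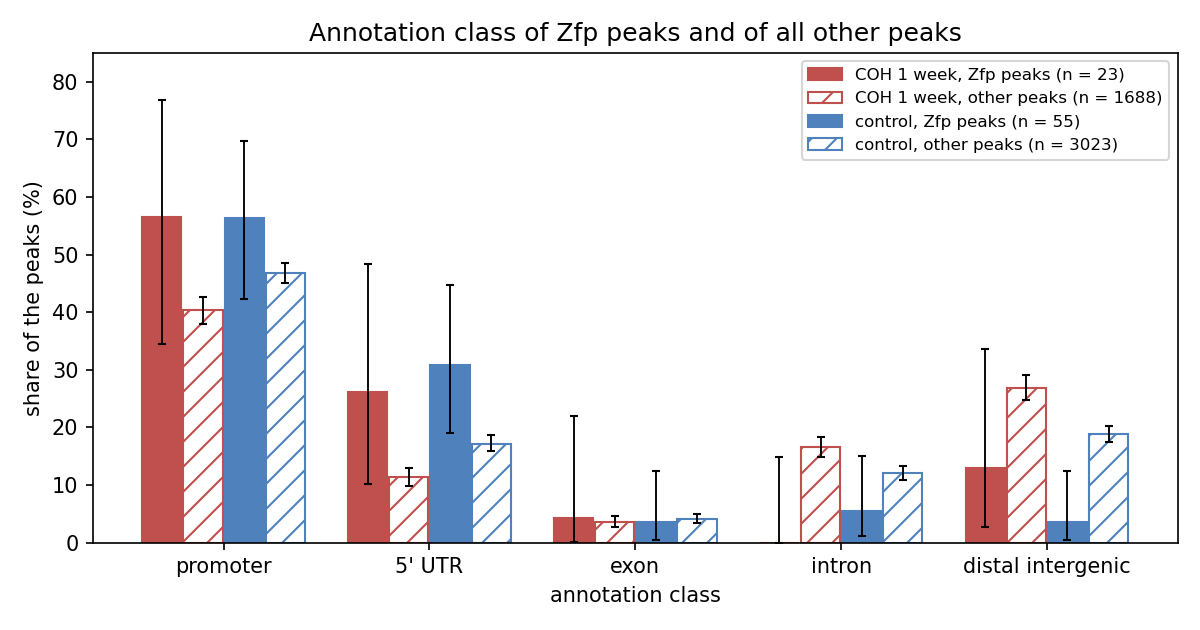
Share of peaks (%) in each annotation class for Zfp peaks (filled bars) and all other peaks (hatched bars) of the COH list (red) and the control list (blue), with exact 95% intervals as error bars. Zfp peaks stood above the other peaks in the promoter and 5' UTR classes and below them in the distal class, with no intronic Zfp peak in COH. The intervals overlapped for promoters in both lists, and for the 5' UTR and distal classes in COH. For introns they met in COH and overlapped in the control.

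Summits placed the peaks close to the start site. The peak lay within 1000 bp of it for 18 of 23 COH peaks, 78.3%, against 50.7% of the others, and for 45 of 55 control peaks, 81.8% (69.1 to 90.9), against 61.3% (59.5 to 63). It covered the start site itself in 12 COH peaks, 52.2% against 30.3%, and in 27 control peaks, 49.1% against 39%. Among those within 1000 bp, the median summit was 134.5 bp inside the gene in COH (-15 to 214, n = 18), beside 30 bp (-6 to 51) for the other COH peaks. In the control it was 109 bp inside (40 to 217, n = 45), beside 66 bp (54 to 81). The Zfp medians were further into the gene in both lists, with intervals that overlapped those of the other peaks. Summits lay downstream of the start in 66.7% of the Zfp peaks of COH and 66.7% of those of the control, beside 53.2% and 59.9% of the others.

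**Figure D2:**
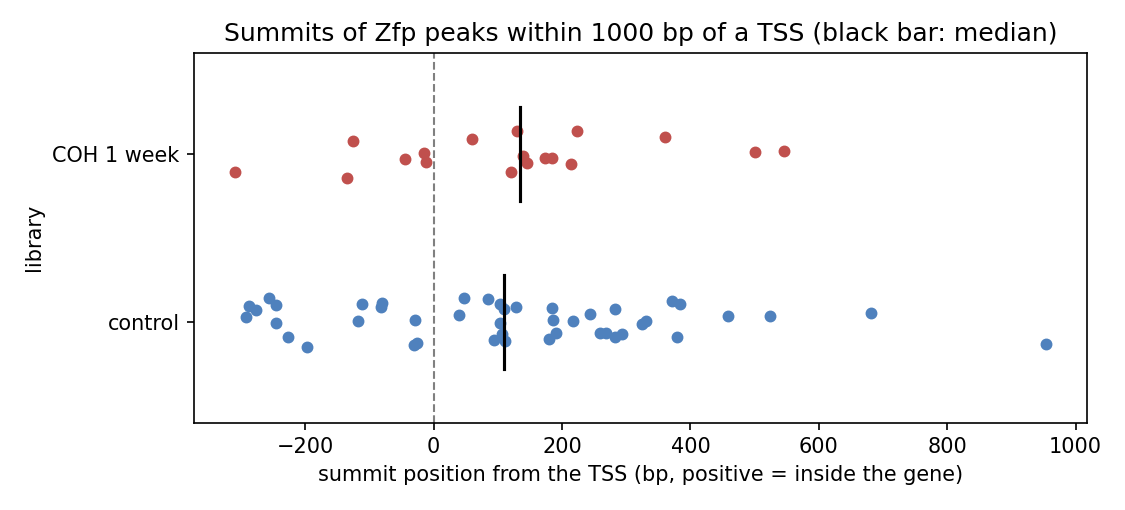
Summit position relative to the start site (bp, positive inside the gene) for Zfp peaks within 1000 bp of a start site, 1 point per peak, COH above and control below; vertical scatter is only for display and the black bar is the median. The COH summits lie between -310 and 546 bp and the control summits between -293 and 954 bp, the last that of Zfp644.

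Some 5' UTR peaks were far from the start site used in the lists. Of the 6 COH peaks in 5' UTRs, 5 lay within 1000 bp of the start, and of the 17 in the control, 12 did. The peak of Zfp217, whose human counterpart is a corepressor-bound oncogene amplified in breast cancer, was the furthest from the start the lists used. It lay at 16538 bp in COH and 16683 bp in the control. The Zfp217 promoter with the window above is at chr2:170131171-170131470 in RefSeq, and the COH peak is at chr2:169973050-169973485 in the lists. These positions differ by about 158 kb, the median offset of all Zfp genes, but offsets differed between genes in size and direction. At Zfp868 the COH peak began at chr8:70077929 in the lists, above the RefSeq promoter start at chr8:69625499. At Zfp217 the list position was the lower one. Whether the peak lies at that RefSeq start was not tested. Zfp672, Zfp759 and Zfp119b had control peaks 6722, 6618 and 4240 bp in. The Zfp532 peak lay 1065 bp in, just past the limit. Zfp532, Zfp592 and Zfp687, which all had control peaks, encode in humans 3 related proteins that bind ZMYND8.

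By their medians the Zfp peaks were of ordinary strength within their lists. Fold enrichment, the authors' ratio of a peak over the caller's background, had a median of 5.72 for the COH peaks (5.04 to 6.18, range 4.16 to 7.74), beside 5.44 for the other COH peaks. In the control it was 4.98 (4.78 to 5.59, range 3.39 to 9.83), beside 5.24. Zfp peaks were thus above the other peaks in COH and below them in the control, with overlapping intervals both times. Among promoter and 5' UTR peaks alone, the Zfp median was 5.72 in COH, beside 5.36, and 5.30 in the control, beside 5.21. The pileup, a count of overlapping fragments at the summit, had a median of 16 in COH (range 9 to 27) and 15 in the control (9 to 33), beside 16 and 17 for the other peaks. A pileup of at least 20 was reached by 13% (2.78 to 33.6) of the COH Zfp peaks, against 35.3% (33 to 37.6) of the others. In the control it was 32.7% (20.7 to 46.7) against 38.6% (36.8 to 40.3), and the intervals overlapped in both lists.

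The upper end of each list held few of them. When each list was split by fold into 5 bins of equal size, the highest bin held 1 of 23 Zfp peaks in COH, 4.35% (0.11 to 21.9), against 20.2% of the others, and 3 of 55 in the control, 5.45% (1.14 to 15.1), against 20.3%. The control interval lay below that of the other peaks, and the COH interval overlapped it. Among promoter and 5' UTR peaks, the highest bin held 0 of 19 in COH, against 11.5% of the others, and 3 of 48 in the control, 6.25% (1.31 to 17.2), against 14.1%. For those peaks the intervals overlapped in both lists. The highest ranks were 268 for Zfp395 and 387 for Zfp868 in the COH list of 1711 peaks, and 151 for Zfp868, 275 for Zfp438 and 490 for Zfp959 in the control list of 3078.

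Overlap between the lists was common as a share of the COH peaks and less so as a share of the longer control list. A COH Zfp peak shared at least 1 bp with a control peak in 18 of 23 cases, 78.3% (56.3 to 92.5), against 61.6% (59.2 to 63.9) of the other COH peaks and 61.8% of the list. Of the control Zfp peaks, 19 of 55 shared a base with a COH peak, 34.5% (22.2 to 48.6), against 34.3% of the others and 34.3% of the list. The control share stood at the background, and the interval of the COH share overlapped that of the other peaks. At promoters and 5' UTRs, 17 of 19 COH peaks had a control partner, 89.5% (66.9 to 98.7), against 67.8% (64.6 to 70.9), and 18 of 48 control peaks had a COH partner, 37.5% (24 to 52.6), against 31.6%. These intervals overlapped too. All 18 COH partners carried the same Zfp gene in both lists. The remaining control peak, at the promoter of Zfp654 (fold 4.53), overlapped a COH peak that was assigned to Cggbp1.

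With the peaks of each list in 5 bins from the lowest to the highest fold, the COH Zfp peaks with a partner were 1 of 2, 4 of 5, 5 of 7, 7 of 8 and 1 of 1, and the control Zfp peaks with a partner were 0 of 9, 6 of 17, 1 of 9, 9 of 17 and 3 of 3. With as few as 1 peak in a bin, no order is read from them. Among start peaks of other genes, the share with a partner in these bins was 47.6, 59.5, 64.5, 83.4 and 93% in COH, and 20.6, 22.3, 30.3, 36.3 and 54.6% in the control. Control Zfp peaks with a partner had a median fold of 6.07, and the 36 without had 4.84, beside 6.05 and 4.95 for the other control peaks. The strongest control Zfp peak without a partner was that of Zfp131, a BTB-domain transcription factor, with a fold of 6.50 and a pileup of 23; the nearest COH peak was 100481 bp away. Zfp64 (6.38) and Zfp1 (6.26) followed it.

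The values of the 18 overlapping pairs show how far single peaks differed. Zfp868 had a fold of 6.91 and a pileup of 16 in COH, against 9.83 and 29 in the control. Zfp438, a repressor in its human form, had 5.94 and 17 in COH, against 8.26 and 33 in the control. Zfp959 had 6.60 and 14 in COH, against 7.02 and 21 in the control. These had the smallest rank sums of all pairs, and in each the control fold was higher. Zfp639, known in humans as ZASC1, had 6.38 in COH and 6.45 in the control, and Zfp963 had 6.18 in COH and 6.49 in the control. Zfp788 had 5.75 in COH and 6.07 in the control. In these 3 the folds differed by little, and the pileup was again lower in COH, at 20, 15 and 19 against 25, 20 and 22 in the control.

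Larger gaps in the same direction were found at Zfp143, an activator of small nuclear RNA genes, with a fold of 5.03 in COH and 6.53 in the control. Zfp263, in humans a repressor with SCAN and KRAB domains, had 4.76 in COH and 6.52 in the control. Zfp768 had 4.90 in COH and 6.12 in the control, and Zfp786 had 4.16 in COH and 6.08 in the control. The Zfp786 peak was the weakest Zfp peak of the COH list, with a pileup of 9 against 16 in the control. Zfp78 had 4.90 in COH and 5.94 in the control, while Zfp280d and Zfp433 were nearly level, at 5.43 and 5.47 in COH against 5.59 and 5.53 in the control.

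In 5 of the 18 pairs the fold was higher in COH. Zfp395, whose human form is induced by low oxygen, had 7.74 in COH and 4.78 in the control, with a pileup of 27 in COH and 20 in the control. It was the only pair of distal peaks, about as far upstream of the gene in both lists (-14370 bp in COH, -14302 bp in the control). Zfp869 had 6.66 in COH and 4.76 in the control, with pileups of 19 in COH and 15 in the control. Zfp217 had 5.68 in COH and 4.70 in the control, with pileups of 15 in COH and 13 in the control. All 3 had the higher pileup in COH as well. At Zfp706, which restrains Klf4 in mouse embryonic stem cells, the fold was 6.49 in COH and 4.80 in the control. At Zfp335, a regulator of neurogenesis and partner of a histone H3 methyltransferase complex, it was 5.83 in COH and 4.55 in the control. The pileups of these last pairs were equal, 17 in both lists for Zfp706 and 24 in both for Zfp335. Pileup was higher in COH in 3 pairs, equal in 2 and lower in 13. Pileup was lower in COH in 72.2% (46.5 to 90.3) of the Zfp pairs and 70.2% of the 1040 other pairs. The fold was higher in COH in 27.8% (9.69 to 53.5) of the Zfp pairs and 46.3% (43.3 to 49.4) of the others, and the COH peak was the longer one in 22.2% (6.41 to 47.6) and 35.2%, with overlapping intervals each time.

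**Figure D3:**
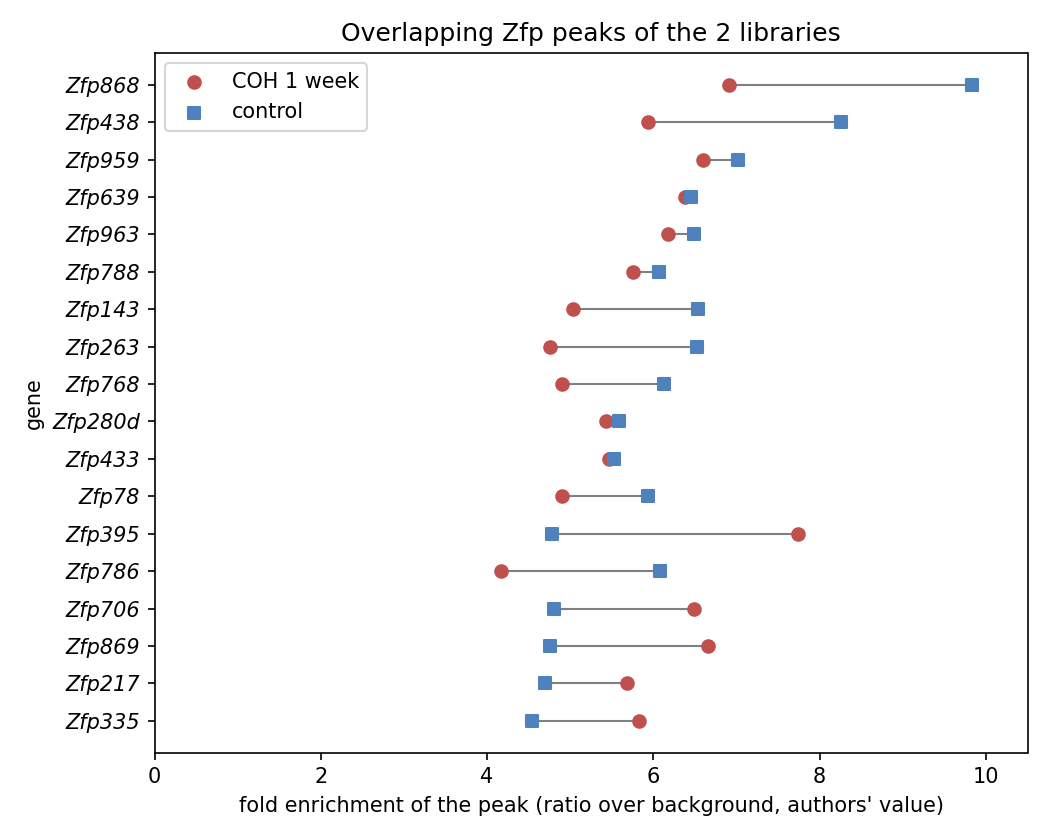
Fold enrichment (authors' ratio over background) of the 18 overlapping Zfp pairs, COH as red circles and control as blue squares joined by a line, genes ordered by rank sum from the top. The control value is the higher one for 13 genes and the COH value for Zfp395, Zfp706, Zfp869, Zfp217 and Zfp335.

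The summits of a pair lay a median of 116 bp apart, beside 71 bp for the other overlapping pairs, and at most 353 bp apart, at Zfp217. They were at most 100 bp apart in 8 of 18 pairs, 44.4% (21.5 to 69.2), beside 59.1% of the others. The Zfp335 summit was at the same base in both lists. The assigned class differed within 3 pairs. It was 5' UTR in COH and promoter in the control at Zfp639, and promoter in COH and 5' UTR in the control at Zfp706 and Zfp280d.

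The 4 genes of the COH list alone included 2 with a peak at the gene's beginning. Zfp872 had a promoter peak with a fold of 5.72 and a pileup of 12, and the nearest control peak, of Smarca4, was 571689 bp away. Zfp467, known for steering marrow precursors between bone and fat, had a 5' UTR peak of fold 4.25 with the nearest control peak 148133 bp away. The other two were distal. That of Zfp239 (fold 5.88) lay 17212 bp downstream of the gene's start, and the nearest control peak, of Hnrnpf, was 27092 bp away. That of Zfp365 (fold 5.29), which encodes a partner of DISC1 also called DBZ, lay at -13258 bp, upstream of the start, and the nearest control peak, of Rtkn2, was 52976 bp away.

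A second peak in 1 list was found at Zfp706, Zfp518a and Zfp438. Zfp706 had a COH peak of fold 5.04 within an exon of Gm34590, 68809 bp from the Zfp706 start, besides its promoter peak. Zfp518a had control peaks of fold 4.59 at its promoter and 4.98 in an exon of E030044B06Rik, at -21251 bp. Zfp438 had a distal control peak of fold 4.05 at -92853 bp besides its promoter peak of 8.26. None of the second peaks overlapped a peak of the other list.

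Set against all annotated Zfp genes, those with a peak were a small part. RefSeq lists 397 protein-coding Zfp genes among 21896 protein-coding genes. A peak was assigned to 22 of them in COH, 5.54% (3.51 to 8.27), against 5.38% of the other protein-coding genes and 5.38% of all. In the control it was 53, 13.4% (10.2 to 17.1), against 10.7% (10.3 to 11.1) of the others and 10.8% of all. Both shares lay near the background, with overlapping intervals. With the control list reduced to its 1711 strongest peaks, the control share was 6.55%, against 5.86% of the other protein-coding genes, and with peaks of -log10 q of 5 or more it was 8.56%, against 6.8%. Both lists named 18, 4.53%, against 3.51% of the others. Of the COH Zfp genes, 81.8% (59.7 to 94.8) also had a control peak, against 65.2% (62.4 to 68) of the other COH genes, and of the control Zfp genes 34% also had a COH peak, against 32.7%.

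Zfp genes standing alone had a control peak more often than those in large tandem runs. A run was counted where neighbouring Zfp genes of RefSeq lay at most 500 kb apart. Of the 128 genes standing alone, 9 had a COH peak, 7.03% (3.27 to 12.9), and 28 had a control peak, 21.9% (15.1 to 30). Of the 86 genes in runs of 2 to 4, 5 had a COH peak, 5.81%, and 13 a control peak, 15.1% (8.3 to 24.5). Of the 183 genes in the 17 runs of 5 or more, 8 had a COH peak, 4.37% (1.91 to 8.43), and 12 a control peak, 6.56% (3.43 to 11.2). In the control the interval for large runs lay below that for single genes, while in COH the intervals overlapped. How reads that match several similar genes were treated is not given in the sources used here.

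Several of the largest runs had next to no peaks. The counts are to be read beside 5.38% of all protein-coding genes with a peak in COH and 10.8% in the control. With so few genes a run, no difference between runs is read from them. The run of 24 genes from Zfp640 to Zfp273 on chromosome 13 had none in COH and 1 in the control, at Zfp759. The 23 genes from Zfp160 to Zfp13 and the 13 from Zfp871 to Zfp414 on chromosome 17 had none in either list, nor had the 16 from Zfp990 to Zfp933 on chromosome 4. On chromosome 7, the 15 genes from Zfp84 to Zfp146 had none in COH and 1 in the control, at Zfp382, and the 14 from Zfp180 to Zfp526 had none in either. Some smaller runs had more, and those not named here had 0 or 1 in each list. The 10 genes from Zfp553 to Zfp646 on chromosome 7 had 1 in COH and 2 in the control, and the 9 from Zfp786 to Zfp775 on chromosome 6 had 2 in COH and 2 in the control. The 6 genes from Zfp930 to Zfp866 on chromosome 8 had 3 in COH and the same 3 in the control.

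The last of these runs gave the only cluster of Zfp peaks in the COH list, where a cluster was a chain of Zfp peaks at most 500 kb apart that named at least 2 genes. Zfp868, Zfp869 and Zfp963 had their peaks within chr8:70077929-70202762 in COH and chr8:70077889-70202902 in the control, by the lists' coordinates, and no other gene had a peak in between in either list. Each of the 3 COH peaks overlapped its control partner. Zfp964, which lies between Zfp868 and Zfp869, had no peak. The folds were 6.91, 6.66 and 6.18 in COH, all above the median Zfp peak, and 9.83, 4.76 and 6.49 in the control, where Zfp869 was below it.

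The control list, with 55 Zfp peaks against 23 in COH, had 3 further clusters. Clusters were not counted with lists of equal size. At chr17:56185694-56252260, Zfp119a (5.34), Zfp959 (7.02) and Zfp119b (5.64) had peaks, and all 3 Zfp genes annotated there were named; in COH only Zfp959 was, with 6.60. At chr10:81540305-81766325, Zfp433 (5.53) and Zfp781 (5.75) had peaks with a peak of Gm32687 in between, and in COH only Zfp433 was named, with 5.47. At chr8:72662077-72705074, Zfp617 (5.64) and Zfp961 (4.99) had peaks and neither did in COH. Every Zfp peak of the 4 control clusters lay at a promoter or 5' UTR.

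**Figure D4:**
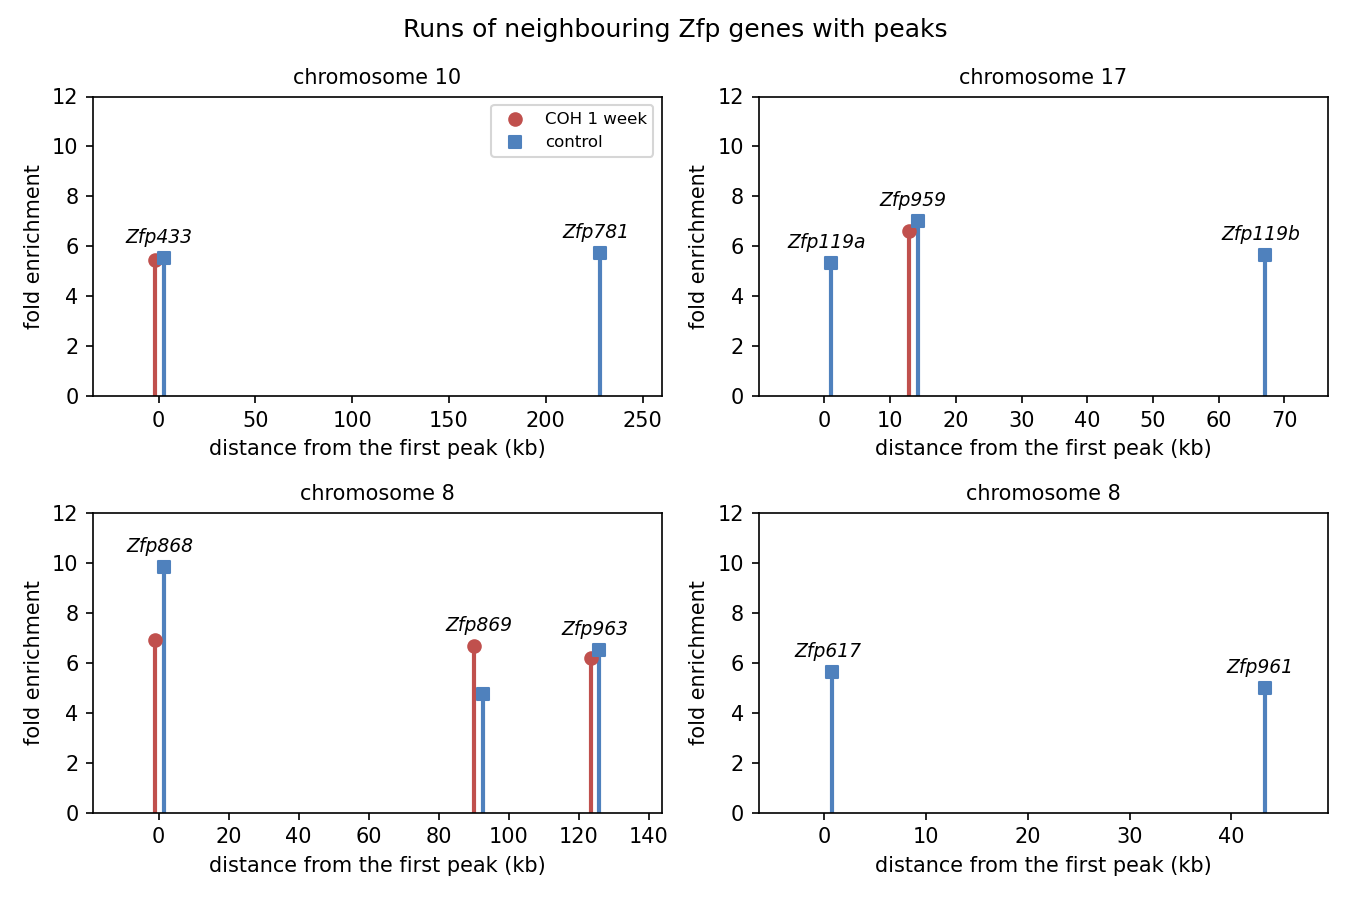
Fold enrichment of Zfp peaks in the 4 clusters of neighbouring Zfp genes against distance from the first peak (kb), COH as red circles and control as blue squares; markers of the same gene are drawn slightly apart so that both can be seen. All 3 genes of the larger chromosome 8 cluster have a peak in both lists, and in the others only Zfp433 and Zfp959 have one in COH.

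By known function, the lists below are to be read beside the 5.38% of all protein-coding genes with a peak in COH and the 10.8% in the control. None of the 4 annotated CCCH genes of messenger RNA decay (the Zfp36 family) had a peak in either list. Of 7 promoter activators, 1 had a COH peak, Zfp143, and 3 had a control peak, Zfp143 (6.53), Zfp64 (6.38) and Zfp384 (4.58). Of 12 genes of neural development, 1 had a COH peak, Zfp335, and 2 a control peak, Zfp335 (4.55) and Zfp804a (5.70), a gene near human psychiatric risk variants. Zfp143 and Zfp335 were thus the members of these lists with a peak in both libraries. Of 8 annotated repressors of imprints and retroelements, none had a COH peak and 2 had a control peak, Zfp932 (4.89), which restrains endogenous retroviruses, and Zfp961 (4.99). Of 6 genes of RNA processing and the spindle, none had a COH peak and 1 had a control peak, Zfp326 (4.43), in humans a link between RNA polymerase and splicing. With 4 to 12 genes a list, the shares have wide intervals, such as 42.9% (9.9 to 81.6) for the activators and 25% (3.19 to 65.1) for the repressors of imprints and retroelements in the control.

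Among the genes with a control peak alone, some are known from the eye in humans. Zfp513, a human retinitis pigmentosa gene, had a promoter peak with a fold of 5.09 and a pileup of 28, and Zfp644, a human high myopia gene, had a 5' UTR peak with a fold of 6.11 and a pileup of 18. They were picked out here after their values were seen.

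The partners of KRAB proteins had peaks more often than the Zfp genes. Of 31 genes of the corepressor pathway, 7 had a COH peak, 22.6% (9.59 to 41.1), and 11 had a control peak, 35.5% (19.2 to 54.6), with 6 in both lists, beside 5.38% and 10.8% of all protein-coding genes. Both intervals lay above those of the Zfp genes. Cbx3, a heterochromatin protein, had promoter peaks of fold 5.01 in COH and 7.33 in the control. Morc3 had 4.33 in COH and 5.89 in the control, and Mbd3, a subunit of the NuRD complex, had 5.67 in COH and 4.56 in the control. Mbd2 had a peak in COH alone (5.40), and Dnmt1 (6.92), Hdac2 (8.03), Daxx (4.77), Tasor (5.16) and Gatad2a in the control alone. Trim28 and Setdb1 themselves had no peak in either list.

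The promoters of the Zfp genes with a peak were richer in CpG than those of the other Zfp genes, while their interval contained that of other genes with a peak. The median number of CpG dinucleotides in the 300 bases was 20.5 (16 to 30) for the 46 Zfp genes with a peak, 13 (11 to 15) for the 285 without, 26 (25 to 26) for the 2178 other protein-coding genes with a peak and 12 (12 to 13) for the 14982 without. The SP/KLF box GGGCGG was likewise more frequent in Zfp genes with a peak than in those without, and its interval overlapped that of other genes with a peak. It was found, on either strand, in a promoter of 69.6% (54.2 to 82.3) of the Zfp genes with a peak and 43.2% (37.3 to 49.1) of those without, beside 75.6% (73.8 to 77.4) and 45.4% of the other genes and 38.2% of all genes of the table.

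The YY1 core ATGGCG was more frequent in the Zfp genes with a peak than in the other sets. It was found in 17 of the 46 Zfp genes with a peak, 37% (23.2 to 52.5), and in 14.7% (10.8 to 19.4) of those without. Among other protein-coding genes it was found in 17.9% (16.3 to 19.6) of those with a peak and 11.5% of those without, and in 10.2% of all genes of the table. The interval of the Zfp genes with a peak lay above those of the other sets. Counted over the table's promoters in place of genes, the shares were 28.6% of 63 and 13% of 338 for the Zfp genes, and 14.5% and 10.2% for the others. Below the median of 20.5 CpG the core was found in 34.8% (16.4 to 57.3) of the Zfp genes with a peak, 11.7% (7.74 to 16.8) of those without and 11.6% (9.31 to 14.2) of the other genes with a peak. At or above it the shares were 39.1% (19.7 to 61.5), 23.6% and 20.9%. On both sides the interval of the Zfp genes with a peak overlapped that of the Zfp genes without. By list, it was found in 42.1% of the 19 Zfp genes with a COH peak and 40.5% of the 42 with a control peak, and 8 of the 17 genes had a peak in both lists.

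Of the 5 remaining motifs, none had an interval in the Zfp genes with a peak that was clear of that in the Zfp genes without. The NF-Y box CCAAT was found in 58.7% of the Zfp genes with a peak, 50.9% of those without and 45.8% of other genes with a peak, and in 41.1% of all genes of the table. The ETS site CCGGAAG was found in 19.6%, 23.5% and 15.4% of these sets and in 9.93% of all. The CRE core TGACGT was found in 10.9%, 11.9% and 14.7%, and in 8.37% of all, and the NRF1 core GCATGC in 6.52%, 11.2% and 11.4%, and in 8.93% of all. The TATA box TATAAA was found in 6.52%, 8.42% and 8.68%, and in 15.7% of all. All were searched on both strands. A match describes the letters of a window and does not show binding of a factor.

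**Figure D5:**
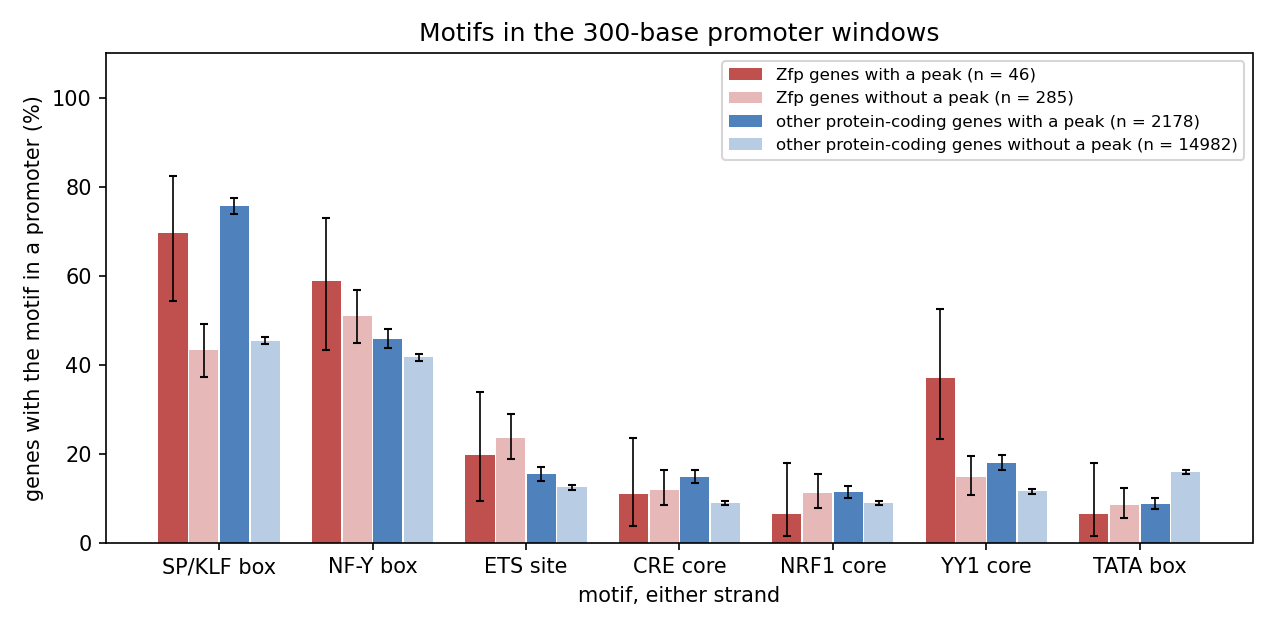
Share of genes (%) with each motif in a RefSeq promoter window of 300 bases, either strand, for Zfp genes with and without a peak (red, light red) and other protein-coding genes with and without a peak (blue, light blue), with exact 95% intervals. The YY1 core stands at 37% in Zfp genes with a peak and at 14.7, 17.9 and 11.5% in the other sets.

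The 17 genes held 19 copies of the YY1 core. The letters ATGGCG lay on the gene's own strand in 4 of the 19, 21.1% (6.05 to 45.6), and in 26.5% of the copies in Zfp genes without a peak, against 57.2% (55.2 to 59.2) of those in other protein-coding genes. The reversed orientation, seen in 8 of the 10 windows printed above, was thus that of most copies in Zfp genes with and without a peak. Of the 19 copies, 8 began after the start site, and 1, in Zfp687, overlapped an NF-Y box. Zfp617 held 3 copies. Of 94 pairs of windows with the core on the same strand, the median pair had 13 of 30 bases in common. The 6 bases of the core are the same in every such pair by construction, and windows without the core were not compared. The highest values below are the extremes of these 94 pairs, so no relatedness is read from them. The neighbours Zfp433 and Zfp781 on chromosome 10 shared the most, 21 of 30, and Zfp433 and Zfp869, on chromosomes 10 and 8, shared 19 with the longest unbroken run, cCGCCATgctgcag.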

How the data were processed

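Nuclei of the retina were profiled by CUT&Tag against Rac1, with 15 PCR cycles, per the labels' protocols. The submitters' processing notes name cutadapt 1.9.1, Bowtie2 and the build mm9 without their role. The sources used here do not give the peak caller, its settings or how duplicates were handled. As there is 1 list per library, peak calling per library was assumed. The authors deposited the signal (a pileup per peak), the fold enrichment (a ratio over background), the -log10 p and -log10 q values, whose headings were lost, and other values (positions, distances, annotation class and gene), per the file headers.

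From these lists, Zfp peaks were counted, ranked within their list and matched between lists where they shared 1 bp or more, with Python 3.11.15, pandas 2.3.3 and scipy 1.17.1. Overlap and cluster steps were checked on simulated peaks. With 1 library per group, no test was made. Protein sequences were planned and not used here. Some genes of the lists are not reported here by name. Gene order, gene numbers and promoters came from RefSeq (GRCm38.p6). Its coordinates were set against those of the lists only for the offset of gene starts and at Zfp217 and Zfp868. The members and all gene lists and motifs were chosen with earlier results of these data known. Genes named are those of the 10 strongest Zfp peaks of each list, the pairs of smallest rank sum, the clusters, genes with a second peak and members of the lists; others were named for position or role after their values were seen. Alternatives were a -log10 q of at least 5, equal numbers of peaks, 1 peak per gene, other overlaps, other gaps and promoter peaks only.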

Additional observations from a re-analysis of the deposited data

How the results depend on the processing

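Of 44 alternative values for 15 results, 34 stayed within the main value's interval or within 1.5 times the main count. With the control list reduced to its 1711 strongest peaks by fold, 100% of its Zfp peaks were at a promoter or 5' UTR (63.1% of the others), 50% overlapped a COH peak (46.1% of the others), 26 Zfp genes were named and the share of annotated Zfp genes was 6.55% (5.86% of other protein-coding genes). When only peaks with -log10 q of 5 or more were kept, the control had 34 Zfp genes, 8.56% of those annotated (6.8% of other protein-coding genes), and a median fold of 5.67. With pileup in place of fold, the median percentile of the control Zfp peaks was 33.7. With gaps of up to 1 Mb there were 2 clusters in COH, adding Zfp786 with Zfp467, and 7 in the control. The cause of these shifts was not tested, beyond the smaller number of peaks in the first 2 settings. No paired analysis was possible because each group had 1 library. The number of reads is unknown, so no limit from depth can be given, and a difference between the lists cannot be told apart from a difference between 2 single libraries.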

Other observations

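Other zinc finger families had peaks as well, to be read beside 5.38% of all protein-coding genes in COH and 10.8% in the control. Of 17 annotated Klf genes, 6 had a COH peak, 35.3% (14.2 to 61.7), and 5 a control peak, 29.4% (10.3 to 56), with Klf12 and Klf13 in both. The shared Klf12 peak was distal, at -104446 bp in COH with a fold of 6.78, against -104392 bp and 8.59 in the control. Klf3, Klf7, Klf10 and Klf16 had promoter peaks in COH alone, with folds of 5.17, 5.03, 4.58 and 4.30, and Klf2 (5.47), Klf4 (6.06, distal) and Klf11 (4.67) had peaks in the control alone. Of 41 Zbtb genes, whose BTB domain binds corepressors, 6 had a COH peak, 14.6% (5.57 to 29.2), and 9 a control peak, 22% (10.6 to 37.6), with 5 in both. Zbtb20 had a promoter peak of 7.37 in COH and 8.65 in the control, and Zbtb37 had 8.32 in COH and 4.71 in the control. Of 6 Zmym genes, 2 had a COH peak and 4 a control peak, among them Zmym5 with 7.03 in COH and 6.47 in the control. The remaining families had few. Of 16 Zscan genes and 16 Zc3h genes, 0 had a COH peak and 2 a control peak each, 12.5%, and of 11 Zkscan genes, 1 had a COH peak, 9.09%, and 0 a control peak. None of the Zfhx and Zic genes had a peak in either list.

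A start site facing that of another gene was found in 17.4% (7.82 to 31.4) of the Zfp genes with a peak, 9.47% of those without and 19.8% (18.1 to 21.5) of other protein-coding genes with a peak. The 8 Zfp genes with a peak and a facing start were Zfp788 and Zfp869, in both lists, and Zfp64, Zfp142, Zfp169, Zfp319, Zfp672 and Zfp687, in the control alone. The peaks of Zfp169 and Zfp672 lay 15461 and 6722 bp from the start the lists used.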
